A study of Mus musculus with 7 samples.

Results

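Tetraspanins are small membrane proteins that cross the membrane several times, hold a conserved large extracellular loop, and gather integrins, receptors and enzymes into clusters at the cell surface. Many carry glycans, and in blood cells they shape adhesion, signalling, granule traffic and, in platelets, the response to collagen. The genes described here are 10 tetraspanins of platelets, stem cells and leukocytes, listed by name out of 34932 genes, with earlier results of these data known: Cd9, Cd37, Cd53, Cd63, Cd81, Cd82, Cd151, Tspan9, Tspan32 and Tspan33. All 10 passed the filter on low counts.

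The study compared the most primitive blood stem cells of the marrow, long-term haematopoietic stem cells or LT-HSCs, between mice that lack B4galt1 in all tissues (KO, genotype B4-/-, 4 libraries) and wild-type mice (WT, 3 libraries). Both groups are on a 129S1/C57Bl/6 background, with no treatment given in the labels. B4galt1 encodes a galactosyltransferase that extends N-glycans. The cells were sorted from the bone marrow as lineage-negative, Sca-1+, c-Kit+, CD150+ and CD48-, and their RNA was sequenced in bulk. The labels do not say that each replicate is a separate mouse, and a p-value then reflects no more than the spread among these libraries, part of which may be technical.

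The libraries held 23508985 to 34941390 estimated reads. Levels are given in CPM, counts of estimated reads relative to library size after scaling between libraries (TMM), for comparing 1 gene between libraries, and in TPM, which also divides by transcript length, for comparing genes. Values per library are in replicate order throughout. B4galt1 RNA did not separate the groups (14.6 to 19.3 CPM in KO, 11.3 to 24.4 CPM in WT; log2 fold change -0.20, edgeR adjusted p = 0.758), so the directions below rest on the labels. Of the sort markers, Kit, Ly6a (Sca-1) and Slamf1 (CD150) were present in every library and their ranges overlapped between the groups. Cd48, the marker the gate excludes, was at 105 to 142 CPM in KO and 14.0 to 32.3 CPM in WT (log2 fold change 2.40, edgeR adjusted p = 0.000804). KO replicate 4 and WT replicate 3 lacked the expression of Y-linked genes seen in the other 5 libraries.

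Among the 10 tetraspanins, Cd53 rose and Cd9 and Tspan9 fell in the KO libraries. Cd9 was at 510.0 ± 61.9 CPM in KO (SD, n = 4) against 1388 ± 319 CPM in WT (SD, n = 3). Cd53 was at 92.9 ± 42.3 against 15.2 ± 6.13 CPM, and Tspan9 at 1.5 ± 0.456 against 10.3 ± 4.45 CPM. The other 7 did not pass the test, which was edgeR's quasi-likelihood test over 14695 genes at a Benjamini-Hochberg adjusted p below 0.05. Of all genes tested, 2.26% were called, 0.599% higher and 1.66% lower. The group ranges did not overlap for 5 of the 10, with KO above WT for 2 and below for 3. Over all genes tested the ranges were apart for 15.7%, with KO above for 8.23% and below for 7.47%. The median log2 fold change of the 10 was -0.36, beside 0.03 over all genes tested.

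**Figure D1:**
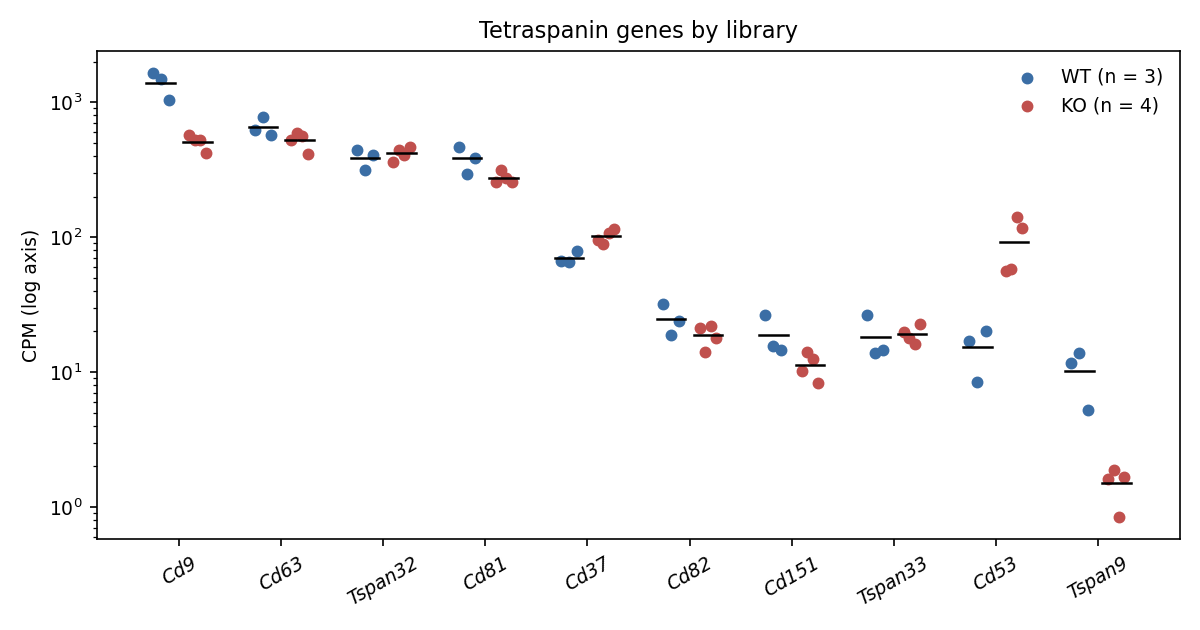
CPM on a log axis (y) for each tetraspanin gene (x), with 1 point per library, WT in blue (n = 3) and KO in red (n = 4), and the group mean as a black line. Cd9, Cd151 and Tspan9 lie lower in every KO library than in any WT library, and Cd37 and Cd53 lie higher.

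Cd9 (ENSMUSG00000030342, GRCm38 chromosome 6, 125460266 to 125494791, minus strand) encodes the tetraspanin known as a platelet surface antigen, also used as a marker of mouse stem cells. It was at 570.5, 521, 525 and 423 CPM across the KO libraries and at 1650.3, 1481 and 1033 CPM across the WT libraries. The KO libraries were tightly grouped, and the highest of them lay well under the lowest WT library. The log2 fold change was -1.44 (SE 0.189, 95% interval -1.86 to -1.03, edgeR adjusted p = 0.00229), a 2.72-fold lower level. Nearly all of its RNA was assigned to a single transcript, Cd9-201, with at least 99.5% of the gene's TPM in every library except KO replicate 3 at 99.49%.

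Tspan9 (ENSMUSG00000030352, chromosome 6, 127961396 to 128143594, minus strand) encodes a tetraspanin of megakaryocytes and platelets that shares membrane clusters with the collagen receptor GPVI. It lies 2.47 Mb from Cd9 on the same strand. Its level was 1.60, 1.89, 0.841 and 1.67 CPM across the KO libraries and 11.8, 13.8 and 5.26 CPM across the WT libraries. All KO libraries were below all WT libraries, with WT replicate 3 the lowest of its group. The log2 fold change was -2.77 (SE 0.420, 95% interval -3.70 to -1.84, edgeR adjusted p = 0.00565). These values rest on 177 estimated reads in KO and 762 in WT. With an offset for transcript length the change was -2.14 and the call was lost (edgeR adjusted p = 0.0834). That offset reads the division among transcripts, which was uneven at this depth: the 3819 nt transcript Tspan9-203 took 100% of the gene's TPM in KO replicates 1 and 3 but 10.7% in KO replicate 4.

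Cd53 (ENSMUSG00000040747, chromosome 3, 106759921 to 106790149, minus strand) encodes a tetraspanin found across leukocytes. Its level was 56.4, 58.0, 140.4 and 117 CPM across the KO libraries and 17.1, 8.39 and 20.2 CPM across the WT libraries. The KO libraries formed a lower pair and a higher pair, and the lower pair was still above every WT library. The log2 fold change was 2.61 (SE 0.409, 95% interval 1.70 to 3.51, edgeR adjusted p = 0.00673), a 6.09-fold higher level. The files hold 1 transcript of Cd53, so no division of reads within the gene enters this value.

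The 3 called genes are shown by the 250 bases before their start sites (RefSeq, GRCm38.p6). Capitals mark words that blood lineage factors are known to bind: AGATAA, the variant AGATAG, the variant TGATAA or the variant TGATAG for GATA factors, the longer word CCGGAAGT for ETS factors and the word TGTGGT for RUNX factors, searched on both strands; none of the matches printed overlap. For Tspan9, with 4 listed starts, the start nearest to Tspan9-203 was taken.
Cd9, chr6:125494761-125495010, minus strand: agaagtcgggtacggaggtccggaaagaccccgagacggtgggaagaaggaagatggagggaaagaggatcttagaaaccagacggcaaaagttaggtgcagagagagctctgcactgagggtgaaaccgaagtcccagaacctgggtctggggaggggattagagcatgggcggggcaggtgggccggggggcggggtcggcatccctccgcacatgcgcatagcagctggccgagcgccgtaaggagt
Tspan9, chr6:128143579-128143828, minus strand: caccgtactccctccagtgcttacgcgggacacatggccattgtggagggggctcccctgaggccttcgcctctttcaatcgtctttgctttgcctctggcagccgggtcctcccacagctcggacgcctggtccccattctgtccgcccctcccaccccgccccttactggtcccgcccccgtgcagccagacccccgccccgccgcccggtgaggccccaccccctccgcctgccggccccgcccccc
Cd53, chr3:106790150-106790399, minus strand: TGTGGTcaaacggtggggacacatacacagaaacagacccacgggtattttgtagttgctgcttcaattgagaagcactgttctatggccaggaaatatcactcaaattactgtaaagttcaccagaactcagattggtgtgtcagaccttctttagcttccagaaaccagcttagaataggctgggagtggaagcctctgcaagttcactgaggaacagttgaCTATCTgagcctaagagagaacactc
The Cd53 window held a RUNX word at bases -250 to -245 and a GATA word, on the opposite strand, at bases -26 to -21, counted back from the start. The Cd9 and Tspan9 windows held none of these words. Over 32851 listed promoters, 26.5% of such windows held a GATA word, 14.1% a RUNX word and 2.88% the ETS word. The GC content was 45.2% before Cd53, 61.6% before Cd9 and 72.0% before Tspan9. Of the 7 uncalled genes, Cd37 held 1 GATA word and Tspan32 held 2 GATA and 2 RUNX words. The Tspan32 window lies before a listed start that is 639 bases from the start of its main transcript, Tspan32-203. Whether these words or the GC content bear on the direction of change was not tested.

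**Figure D2:**
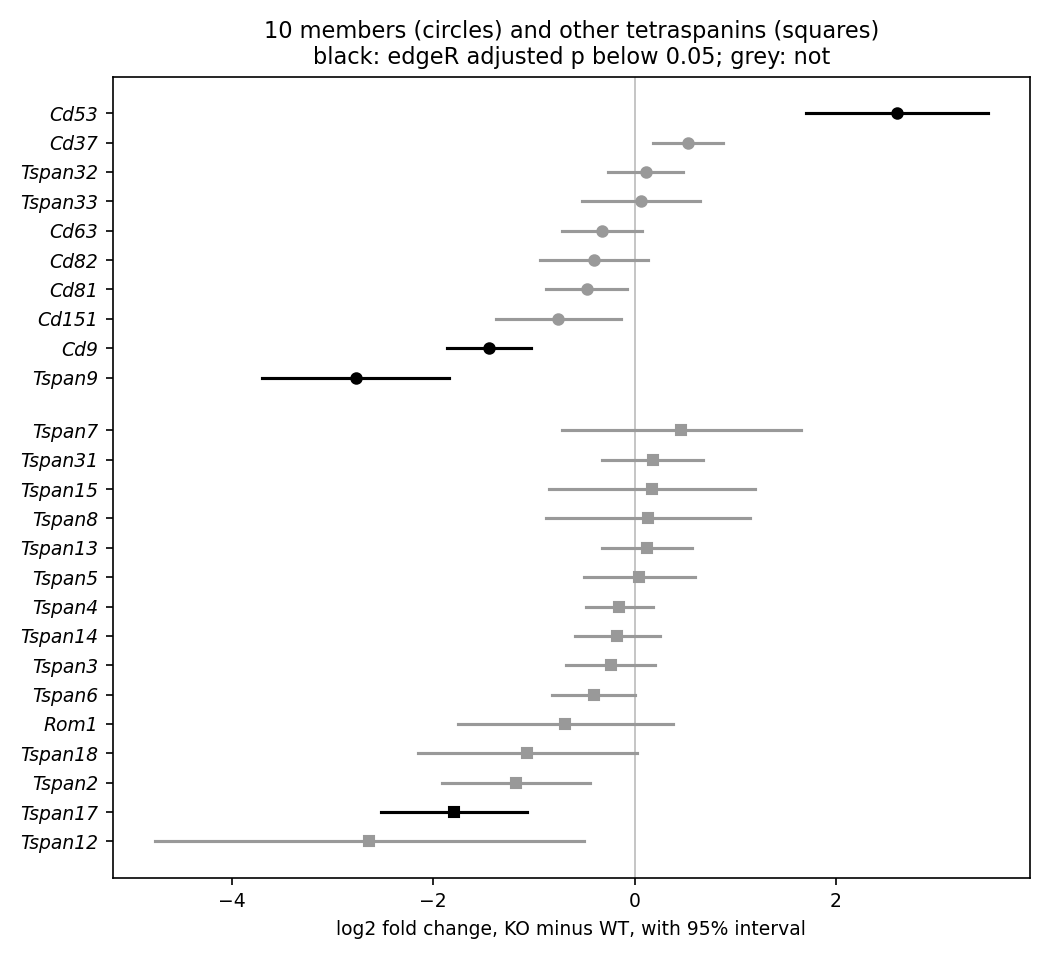
Log2 fold change, KO minus WT (x), with its 95% interval for the 10 listed tetraspanins (circles) and 15 other tested tetraspanins (squares), in black where the edgeR adjusted p is below 0.05. Only Cd53 is called to the right of 0, and Cd9, Tspan9 and Tspan17 are called to the left.

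Cd37, a second tetraspanin of leukocytes and above all of B cells, stood higher in every KO library without passing the test. It was at 96.1, 88.5, 107 and 114 CPM across the KO libraries and at 66.1, 66.0 and 78.6 CPM across the WT libraries. The ranges did not overlap, but the difference was small beside that of Cd53. The log2 fold change was 0.53 (SE 0.157, 95% interval 0.18 to 0.88, edgeR adjusted p = 0.135). It passed with DESeq2 (0.51, adjusted p = 0.0363) and with sex, read from Y-linked expression, as a covariate (0.55, edgeR adjusted p = 0.0481). Cd37 overlaps Tead2 on the opposite strand of chromosome 7 by 13 bases. The libraries carry no strand, but Tead2 had at most 8.41 CPM in any library. Cd9, Cd81, Cd151 and Tspan32 overlap other annotated genes (Gm26728, R74862, Gm10575 and Tspan32os) that are not analysed here, and reads from such a neighbour could not be told apart by strand.

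Cd151, a partner of laminin-binding integrins that also sits in platelets, went the other way and did not pass. Its level was 10.1, 14.0, 12.4 and 8.29 CPM across the KO libraries and 26.6, 15.6 and 14.7 CPM across the WT libraries. The ranges were apart by a narrow gap, from 14.0 to 14.7 CPM. The log2 fold change was -0.76 (SE 0.281, 95% interval -1.38 to -0.13, edgeR adjusted p = 0.244).

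Cd81, which is known to bring dividing stem cells back to rest, was at 255, 317, 275 and 256 CPM across the KO libraries and at 468, 295 and 387 CPM across the WT libraries. KO replicate 2 lay above WT replicate 2, so the ranges overlapped. Its log2 fold change of -0.48 (SE 0.181, 95% interval -0.88 to -0.08) did not pass (edgeR adjusted p = 0.258). Cd82, a tetraspanin tied to stem cell quiescence, ranged from 14.1 to 21.98 CPM in KO and from 18.7 to 32.0 CPM in WT, with a log2 fold change of -0.41 (95% interval -0.94 to 0.13, edgeR adjusted p = 0.478). Cd63, the tetraspanin of lysosomes, granules and exosomes, ranged from 414 to 597 CPM in KO and from 569 to 777 CPM in WT (-0.32, 95% interval -0.72 to 0.07, edgeR adjusted p = 0.445). Each of these 3 overlapped between the groups, and none of the intervals reached the size of the change of Cd9.

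Tspan32 and Tspan33 lay closest to no change. Tspan32, also called Phemx and found in blood-forming tissue, ranged from 359 to 470.1 CPM in KO and from 317 to 441 CPM in WT, with a log2 fold change of 0.11 (95% interval -0.26 to 0.49, edgeR adjusted p = 0.786). Tspan33, known as penumbra and needed for red cell formation, ranged from 16.2 to 22.7 CPM in KO and from 13.8 to 26.5 CPM in WT (0.06, 95% interval -0.52 to 0.65, edgeR adjusted p = 0.929). Tspan32 and Cd81 are neighbours on chromosome 7, 33.1 kb apart on the same strand, and both were uncalled. Cd151 lies 3.77 kb from Tspan4 on that chromosome, and Tspan4 was at 208 ± 20.7 CPM in KO (SD, n = 4) and 231 ± 20.6 CPM in WT (SD, n = 3), also uncalled (log2 fold change -0.15, edgeR adjusted p = 0.668).

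Per length, Cd9 held the largest part of the tetraspanin RNA in WT and the next largest in KO. The 10 genes summed to 2956, 2253 and 2376 TPM across the WT libraries and to 1777, 1931, 2010.0 and 2009 TPM across the KO libraries. Cd9 made up 39.3% to 48.4% of this sum in the WT libraries and 23.2% to 28.4% in the KO libraries. Cd63 made up 24.9% to 34.4% in WT and 30.6% to 37.6% in KO, so that Cd9 led in every WT library and Cd63 in every KO library. Cd53 went from 0.166% to 0.501% of the sum in WT to 1.80% to 4.35% in KO. Shares of a sum move together, and the fall of Cd9 alone raises the share of every other gene in it.

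In WT the mean TPM ran from Cd9 (1126 ± 267) over Cd63 (742 ± 31.3), Tspan32 (274 ± 64.5) and Cd81 (272 ± 82.1) to Cd37 (65.1 ± 13.7), then Cd82 (15.4 ± 4.86), Cd151 (11.99 ± 4.11), Tspan33 (10.2 ± 4.44), Cd53 (8.42 ± 4.22) and Tspan9 (3.26 ± 1.26; SD, n = 3 each). Neighbours from Tspan32 to Cd81, and from Cd82 down to Tspan9, overlapped in their library ranges. In KO the order was Cd63 (676 ± 57.0), Cd9 (485 ± 18.3), Tspan32 (346 ± 61.1), Cd81 (222 ± 21.6), Cd37 (109 ± 23.7), Cd53 (59.9 ± 30.2), Cd82 (13.1 ± 2.61), Tspan33 (11.8 ± 3.01), Cd151 (8.43 ± 1.81) and Tspan9 (0.937 ± 0.704; SD, n = 4 each). There only Cd82 with Tspan33, and Tspan33 with Cd151, overlapped among neighbours. By mean TPM among 34932 genes, Cd9 ranked 150 in WT and 371 in KO, and Cd53 ranked 7183 in WT and 2607 in KO.

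**Figure D3:**
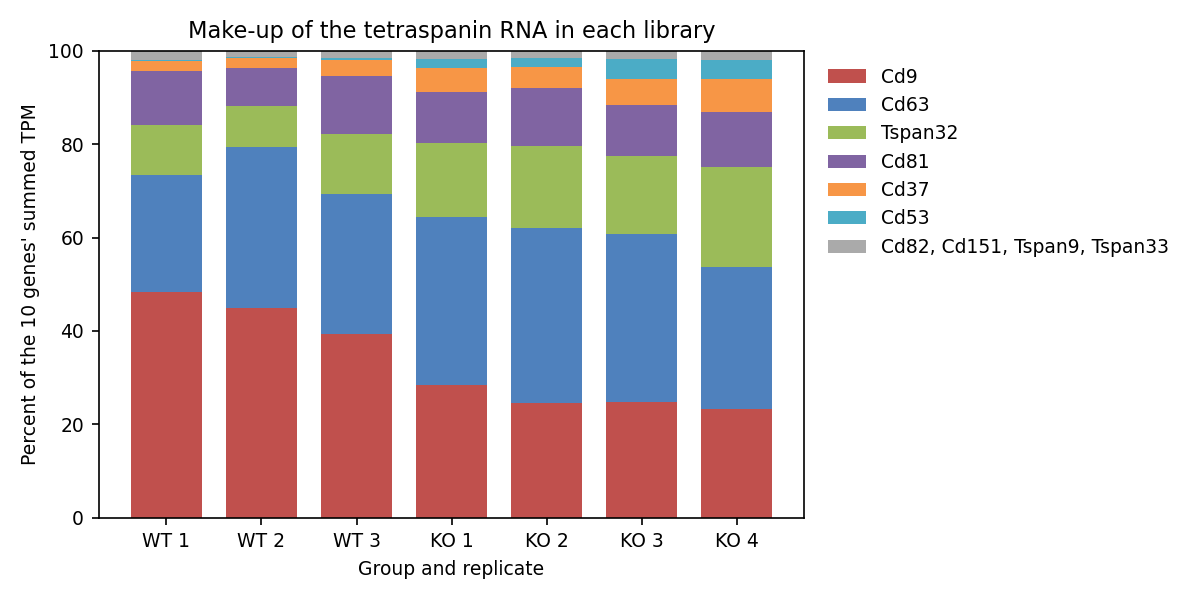
Percent of the summed TPM of the 10 tetraspanins (y) that each gene makes up in each library (x), with Cd82, Cd151, Tspan9 and Tspan33 pooled in grey. The red Cd9 segment takes 39.3% to 48.4% in WT and 23.2% to 28.4% in KO. The green Tspan32 segment takes 8.87% to 12.8% in WT and 15.8% to 21.3% in KO. The orange Cd37 and turquoise Cd53 segments are also wider in KO.

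Tspan32 was split among several transcripts, and the part given to transcripts with a retained intron was larger in every KO library than in any WT library. These took 27.2%, 22.7%, 25.0% and 18.3% of the TPM of Tspan32 across the KO libraries and 16.3%, 16.4% and 13.0% across the WT libraries. In Cd9 they took 0.358% to 0.439% in KO and 0.111% to 0.227% in WT. The level of this transcript of Cd9 overlapped between the groups, at 1.69 to 2.11 TPM in KO and 1.43 to 2.30 TPM in WT. The whole gene was at 467 to 505 TPM in KO and 935 to 1431 TPM in WT. In Cd9 the larger share thus went with a lower total of the gene. In this share both Tspan32 and Cd9 had ranges apart, as had 16.8% of 5955 genes with such transcripts in this direction, against 1.93% in the other. Over all genes, retained-intron transcripts held 5.34% to 6.27% of TPM in KO and 4.92% to 5.09% in WT. In Cd63, Cd81, Cd151 and Tspan33 the ranges of this share overlapped.

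Beside the 2 tetraspanins that fell, platelet genes were also lower in KO. Of 20 megakaryocyte and platelet markers, all tested, 16 fell and 0 rose (0 also at p below 0.05 without adjustment, with DESeq2 and with limma voom), beside 1.66% and 0.599% of all genes tested. Their summed level was 1465 to 2251 CPM in KO and 6470 to 13057 CPM in WT, and none had 0 reads. WT replicate 3 was the lowest WT library for Cd9, for Tspan9 and for this sum. Across the KO libraries the sum was 2251, 1575, 1465 and 1670 CPM, and the orders matched only in part. The highest KO library for the sum was also that for Cd9, and the lowest was also that for Tspan9. However, Cd9 was lowest in KO replicate 4 (423 CPM) and Tspan9 highest in KO replicate 2 (1.89 CPM). In bulk RNA, fewer cells of a type and less RNA per cell cannot be told apart. The part of platelet RNA in the levels of Cd9 and Tspan9 was not tested.

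Beside Cd53, Cd48 and some genes of mast cells and basophils were also higher in KO. Of 10 mast cell and basophil markers, 7 were tested and 2 rose, beside 0.599% of all genes tested: Fcer1a (log2 fold change 2.81, edgeR adjusted p = 0.0328) and Hdc (3.11, edgeR adjusted p = 0.0404), while Mcpt4 and Tpsb2 had 0 reads. Mcpt8 (3.25), Prss34 (2.92), Ms4a2 (3.10), Cpa3 (2.10) and Gzmb (-0.14) did not pass (edgeR adjusted p from 0.153 to 0.972). Without adjustment, 5 were above and 0 below WT at an edgeR p below 0.05, beside 1091 and 1060 of all 14695 genes tested. DESeq2 called 2 higher and 0 lower, and limma voom 3 higher and 0 lower. The ranges were apart with KO above WT for 3 and below for 0, beside 8.23% and 7.47% of all genes tested. The 10 markers' summed level was 1234, 532, 1259 and 352 CPM across the KO libraries and 308, 13.0 and 14.8 CPM across the WT libraries. The order of the KO libraries differed from that of Cd53, which was high in KO replicates 3 and 4 and lower in 1 and 2. The part of these cells in the level of Cd53 was not tested. Of the B cell markers, Pax5 and Igll1 had 0 reads and Ms4a1 at most 0.254 CPM, while Cd79b was at 47.6 to 64.5 CPM in KO and 61.5 to 68.2 CPM in WT and made up most of the list's sum. Ighm was at 2.18 to 6.21 CPM in KO and 0.187 to 2.29 CPM in WT. Of 10 markers in this list 6 were tested and 0 were called (1 above and 0 below WT at p below 0.05 without adjustment, and 0 with DESeq2 or limma voom), with a summed level of 59.03 to 72.1 CPM in KO and 65.9 to 76.0 CPM in WT.

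Of 12 LT-HSC and sort markers, all tested, Cd48 rose and Vwf fell. For the counts in this paragraph, edgeR called 0.599% higher and 1.66% lower of all 14695 genes tested. Without adjustment, 1091 of these genes were above and 1060 below WT at an edgeR p below 0.05. Of the remaining marker lists, 10 markers of T and NK cells had 0 called by edgeR of 7 tested (2 above and 0 below WT at p below 0.05 without adjustment, 0 with DESeq2 and 1 higher with limma voom) and summed to 206 to 363 CPM in KO and 144 to 214 CPM in WT. Most of that sum was Nkg7, at 166 to 335 CPM in KO and 119 to 194 CPM in WT. The 10 erythroid markers summed to 273 to 1666 and 196 to 1120.4 CPM, with 0 called by edgeR of 9 tested (2 above and 2 below WT at p below 0.05 without adjustment, 0 with DESeq2 and 2 lower with limma voom). Car1 made up most of the sum in KO replicate 1 (1462 CPM) and WT replicate 1 (808 CPM). Hba-a1 and Hba-a2 were lower in every KO library than in any WT library without passing (edgeR adjusted p = 0.0622 and 0.159). In this list 0 markers had ranges apart with KO above WT. The 15 granulocyte and monocyte markers summed to 610.4 to 773 and 754 to 900.4 CPM, with 1 lower, S100a9, of 14 tested (6 above and 5 below WT at p below 0.05 without adjustment, 3 higher and 4 lower with DESeq2, 2 higher and 4 lower with limma voom). Most of that sum was Lyz2, at 508 CPM on average in KO and 714 CPM in WT. Mpo (2.48, edgeR adjusted p = 0.0509) and Fcgr3 (2.37, edgeR adjusted p = 0.108) were above WT in every KO library, as Cd53 was, without passing. More of this list went the other way: the ranges were apart with KO above WT for 2 markers and below for 5. Over all genes tested these shares were 8.23% and 7.47%. The part of granulocyte and monocyte RNA in the level of Cd53 was not tested. The 10 stromal and endothelial markers summed to 77.1 to 105 and 85.0 to 118 CPM, with 1 higher, Sparc, of 7 tested (1 higher and 1 lower each with DESeq2, with limma voom and at p below 0.05 without adjustment).

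**Figure D4:**
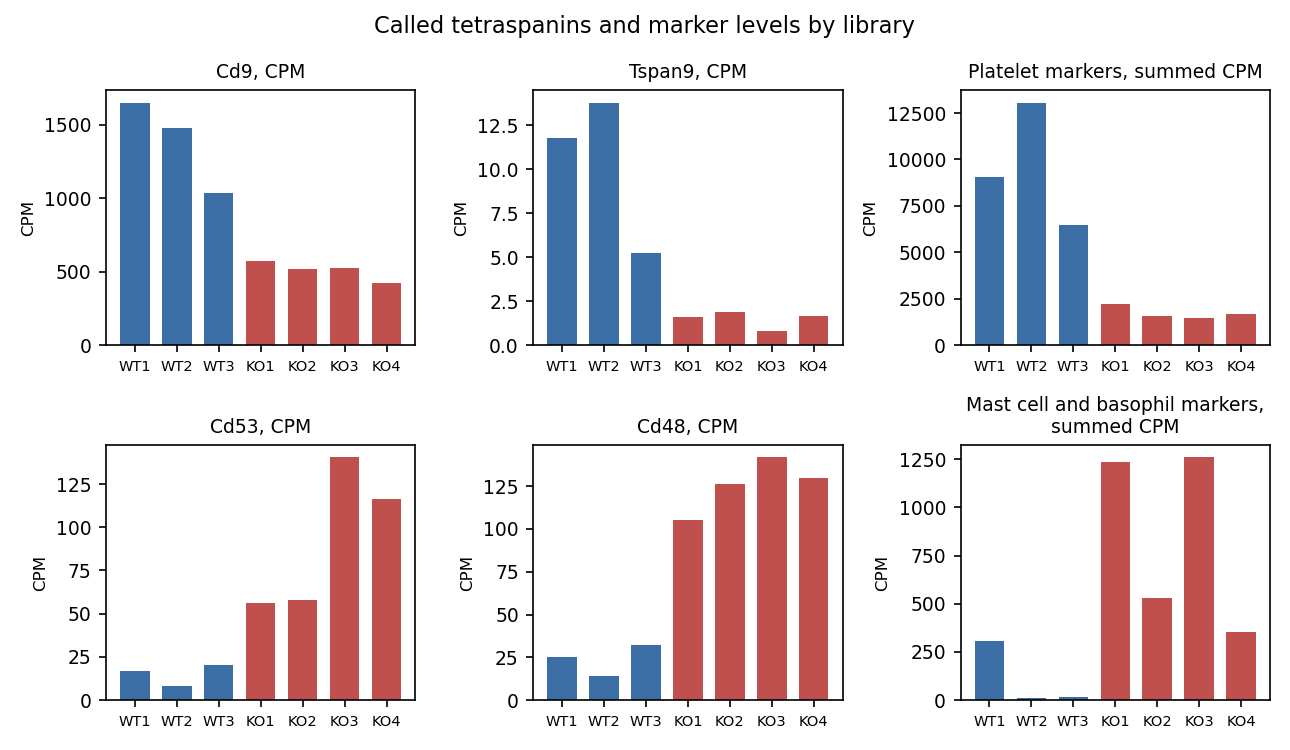
Bars from 0 show CPM in each library (WT blue, KO red) for Cd9, Tspan9 and the summed platelet markers (top), and for Cd53, Cd48 and the summed mast cell and basophil markers (bottom). WT replicate 3 is the lowest WT bar in all top panels, while the order of the KO bars differs among them. The tallest Cd53 bars (KO replicates 3 and 4) are not both tall in the panel of mast cell and basophil markers.

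By Pearson r over the 7 libraries on log2 CPM, among 11284 protein-coding genes, the patterns most like Cd9 were those of Marveld1 (r = 0.994), Inafm2 (0.994) and Nptn (0.992). Those most like Tspan9 were Gp9, a subunit of the platelet von Willebrand factor receptor (0.986), Mkrn1 (0.976) and F5, coagulation factor V (0.974). Those most like Cd53 were Git2 (0.988), Gmip (0.987) and Armc9 (0.980). The points share libraries and group labels, so these r values hold the group difference. With group means removed, r was 0.904 to 0.958 for the genes beside Cd9, 0.782 to 0.924 beside Tspan9 and 0.875 to 0.957 beside Cd53. Genes picked for the highest r among 11284 over 7 libraries have high values by that choice, also with group means removed. They also tend to share the direction of their member for the same reason, and a link between these genes was not tested. Inafm2 (log2 fold change -2.17), Nptn (-1.39), Gp9 (-1.46), Mkrn1 (-1.05) and F5 (-3.43) also fell (edgeR adjusted p at most 0.00761), while Marveld1 (-0.81), Git2 (0.45), Gmip (0.67) and Armc9 (1.05) did not pass.

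The rest of the family showed 1 more lower gene. Of 21 other tetraspanins 15 were tested, 0 rose (0 also at p below 0.05 without adjustment, with DESeq2 and with limma voom) and Tspan17 fell, beside 0.599% higher and 1.66% lower over all genes tested. Their median log2 fold change was -0.17, and Tspan10, Tspan11 and Prph2 had 0 reads. Tspan17 belongs to the TspanC8 group, which guides the protease ADAM10 to the surface. It was at 3.20, 2.03, 3.25 and 4.78 CPM across the KO libraries and 13.5, 10.2 and 10.9 CPM across the WT libraries, with ranges well apart. The difference was -1.79 on the log2 scale (SE 0.326; edgeR adjusted p = 0.0172), and the edgeR adjusted p rose to 0.0519, 0.0619, 0.0753 and 0.0504 without KO replicate 2, KO replicate 3, WT replicate 1 and WT replicate 3. Of the other members of the group, Tspan33 (above), Tspan5 (0.05), Tspan14 (-0.17) and Tspan15 (0.17) were not called, and Adam10 itself was at 155 ± 11.8 CPM in KO (SD, n = 4) and 154 ± 34.2 CPM in WT (SD, n = 3; log2 fold change 0.01, edgeR adjusted p = 0.989).

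Tspan2 and Tspan12 were lower in every KO library than in any WT library without passing. Tspan2 was at 8.35 ± 3.77 CPM in KO (SD, n = 4) and 19.0 ± 2.40 CPM in WT (SD, n = 3; log2 fold change -1.18, edgeR adjusted p = 0.114), and passed with DESeq2 (-1.20, adjusted p = 0.0137) and without KO replicate 3 (-1.52, edgeR adjusted p = 0.0430). Tspan12 was at 0.268 ± 0.302 against 1.70 ± 0.384 CPM (-2.63, edgeR adjusted p = 0.237), and passed with limma voom (-3.91, adjusted p = 0.0230). Tspan18 (-1.07) and Tspan6 (-0.41) overlapped between the groups and did not pass (edgeR adjusted p = 0.352 and 0.345). By length the leading genes of this part of the family were Tspan13 (223 ± 32.2 TPM in KO, SD, n = 4, and 177 ± 68.8 TPM in WT, SD, n = 3) and Tspan4 (206 ± 34.3 and 203 ± 37.2 TPM), and neither was called.

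Genes whose proteins bind or work with tetraspanins were lower where they were called. Of 33 such genes 32 were tested, 6 fell and 0 rose (1 above WT at p below 0.05 without adjustment, 1 higher with DESeq2 and 1 with limma voom), beside 1.66% lower and 0.599% higher over all genes tested. They had a median log2 fold change of -0.28. Among integrins, Itgb3, the beta chain of the platelet fibrinogen receptor that Cd9 and Cd151 accompany, was at 24.7 ± 7.77 CPM in KO (SD, n = 4) and 173 ± 92.2 CPM in WT (SD, n = 3; -2.81, edgeR adjusted p = 0.00214). Its partner chain Itga2b was at -0.94 without passing (edgeR adjusted p = 0.235) and passed without KO replicate 4 (-1.27, edgeR adjusted p = 0.0435), with limma voom (-1.14), with the length offset (-1.75) and in the libraries with Y-linked expression (-1.54). Itga6, the laminin receptor chain that Cd151 binds, fell by 1.11 on the log2 scale (edgeR adjusted p = 0.0138), and its edgeR adjusted p was 0.0614 without KO replicate 2 and 0.0631 without WT replicate 1. Itga3, another such chain, was at 0.220 ± 0.159 against 1.62 ± 1.43 CPM (-2.87, edgeR adjusted p = 0.135), passing with DESeq2 (-2.91) and with sex as a covariate (-3.18).

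Among platelet receptors that lie in tetraspanin clusters, Gp6 (GPVI), the partner of Tspan9, was at 0.308 ± 0.162 CPM in KO (SD, n = 4) and 50.4 ± 13.5 CPM in WT (SD, n = 3; -7.36, edgeR adjusted p = 7.95e-06). Clec1b fell by 6.23 and Gp1bb by 2.27 on the log2 scale (edgeR adjusted p = 6.89e-05 and 0.00117). These 3 and Itgb3 are also counted among the 20 platelet markers. Prkca, a protein kinase C that tetraspanins recruit, fell by 0.92 (edgeR adjusted p = 0.0272) but was at -0.05 with the length offset (edgeR adjusted p = 0.921), and lost its call without KO replicate 2, KO replicate 3, WT replicate 2 or WT replicate 3 (edgeR adjusted p from 0.0712 to 0.0976) and among the libraries with Y-linked expression (0.0748). Mmp14, a membrane protease that CD151 accompanies, was at 12.6 ± 4.15 against 4.52 ± 1.96 CPM with ranges apart (1.48, edgeR adjusted p = 0.0902) and passed with DESeq2 (adjusted p = 0.00430) and limma voom (adjusted p = 0.0363). Cd44, a hyaluronan receptor, was at -0.62 without passing (edgeR adjusted p = 0.249).

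The calls of Cd9 and Cd53 held in all 18 alternative analyses, and that of Tspan9 in 17. The log2 fold change ran from -1.63 to -1.31 for Cd9, from 2.29 to 2.84 for Cd53 and from -3.13 to -2.14 for Tspan9. Within the 5 libraries with Y-linked expression, Cd9 was at -1.53, Cd53 at 2.74 and Tspan9 at -3.13 (edgeR adjusted p = 0.000830, 0.0228 and 0.00416). The other 2 libraries, 1 per group, allow no test of their own. Cd63, Cd81, Cd82, Cd151, Tspan32 and Tspan33 were not called in any of the 18.

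**Figure D5:**
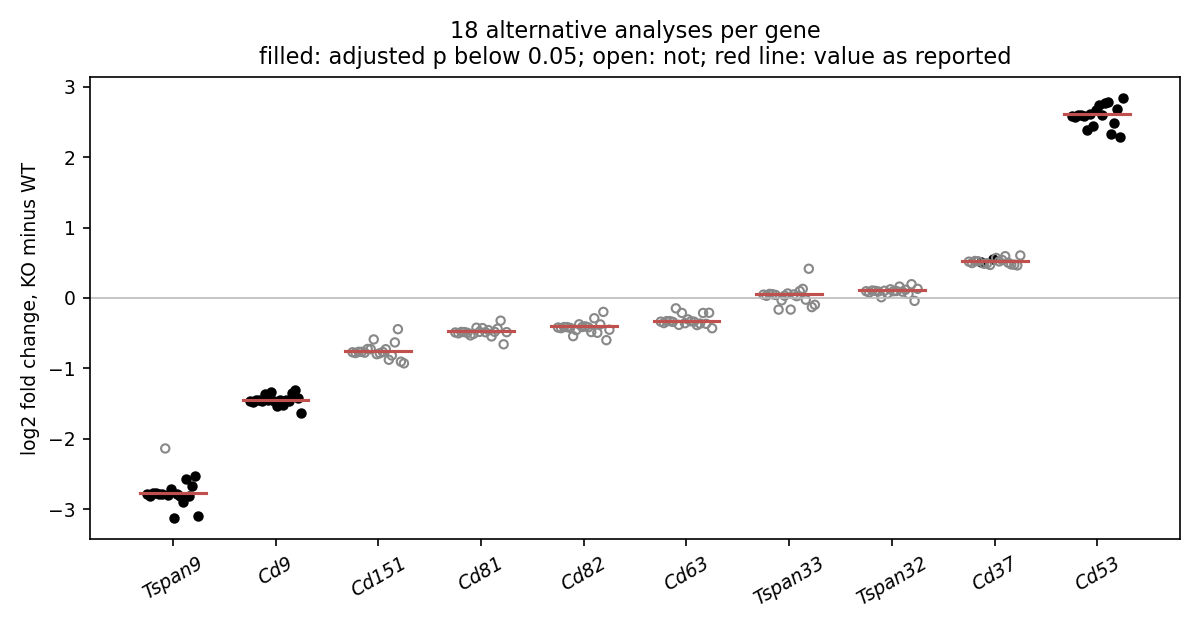
Log2 fold change, KO minus WT (y), of each tetraspanin (x) in 18 alternative analyses, filled where the adjusted p is below 0.05, with the reported value as a red line. Cd9 and Cd53 stay filled in all 18, Tspan9 has 1 open point at -2.14, and Tspan32 and Tspan33 have points on both sides of 0.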

How the data were processed

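RNA-seq of sorted LT-HSCs was deposited as 1 table of transcripts per library. The submitters' processing notes name cutadapt, Salmon 0.11.2 and mm10; for the transcript set the sources used here give no name. The tables hold the estimated counts and TPM per transcript that the authors deposited, and Salmon's effective lengths. Per the labels' protocols the library kit was SMART-Seq v4, whose cDNA carries no strand.

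Transcripts were joined without version to GENCODE M21 (GRCm38): 111787 of 112092 matched, and the rest held 0.0836% to 0.123% of reads. Estimated counts were summed per gene and rounded. Groups came from the sample titles. The 4 KO and 3 WT libraries were compared with edgeR 4.0.16 (R 4.3.3; TMM, filterByExpr, quasi-likelihood test, Benjamini-Hochberg over all 14695 genes). Each SE is the absolute log2 fold change over the root of F, and intervals are 95%. The script was tested on simulated data. There it called 35% of genes changed 2-fold, 82% of genes changed 4-fold and 0.0212% of unchanged genes. A gene without a call may thus still differ between the groups. For retained-intron shares, genes needed at least 1 TPM in every library. DESeq2 1.42.0 and limma 3.58.1 were alternatives. Promoters came from RefSeq; protein sequences, part of the plan, were not used here.

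The members, lists, partners and markers were chosen with earlier results of these data known. The naming rule took the 10 tetraspanins, every called gene of the other tetraspanins and of the partners plus 4 more of smallest p in each, B4galt1, and the 3 protein-coding genes (mean log2 CPM of at least 1, prior count 2) most like each called member. Tspan4, Tspan5, Tspan10, Tspan11, Prph2, Tspan13, Tspan14, Tspan15, Adam10, Tead2, Cd48 and the marker genes named singly lie outside it and were chosen after their values were seen.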

Additional observations from a re-analysis of the deposited data

Results flagged for a closer look

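In the 4 KO libraries, 36 named genes were examined for a library far from the other 3, and 2 showed it. Chance flags about 1 in 20 groups, and groups of 3 were not examined. For Mmp14, KO replicate 4 held 18.8 CPM beside 10.2 to 11.0 CPM in the others. For B4galt1, KO replicate 1 held 19.3 CPM beside 14.6 to 14.9 CPM. None of the 10 tetraspanins was among them.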

How the results depend on the processing

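The 18 alternatives were other scalings (RLE, upper quartile), no filter, a stricter filter (1 CPM in 3 libraries, 50 reads in total), DESeq2, limma voom, a transcript length offset, a replicate block, a sex covariate, only the libraries with over 100 CPM of Y-linked genes, protein-coding genes only, and each of the 7 libraries left out. The sex covariate was read from the same cut on Y-linked expression. The reported counts were 1 higher and 2 lower among the 10 tetraspanins, 1 lower among other tetraspanins, 6 lower among partners, and 88 higher and 244 lower over all genes. DESeq2 called 2 members higher, 2 other tetraspanins lower, 1 partner higher, and 379 genes higher and 567 lower. Limma voom called 2 other tetraspanins lower, 1 partner higher, and 269 genes higher and 439 lower. The length offset called 1 member lower, having lost Tspan9, and 214 genes higher and 252 lower. Sex as a covariate called 2 members higher, and 218 genes higher and 396 lower. With 1 library left out, other tetraspanins lower ran from 0 to 1, and all genes from 30 to 130 higher and from 157 to 279 lower.

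The replicate block left 58 genes higher, and lost the calls of Itga6 (edgeR adjusted p = 0.0742) and Prkca (0.120); it changed no call of the 10 tetraspanins. Deviations of same-numbered KO and WT libraries correlated at -0.05, -0.12 and -0.04, so the numbers are not taken to pair the samples.

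The sign turned for Tspan33 with limma voom (-0.17), the length offset (-0.035) and the libraries with Y-linked expression (-0.17), and its value ran from -0.13 to 0.41 with 1 library left out. In the same way Tspan32 ran from -0.042 to 0.20, and B4galt1 from -0.47 to 0.037. The cause was not tested, and none of these passed. Low depth limits Tspan9, Tspan12 and Itga3, which had at most 177 estimated reads over the KO libraries.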
